A study of Homo sapiens with 3 samples.

Results

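The genes described here are NFE2L2, which encodes the transcription factor NRF2, and 9 of its target genes in the glutathione and thioredoxin systems and in related defence against oxidants. They are NQO1, TXNRD1, GCLM, GCLC, SRXN1, SLC7A11, HMOX1, OSGIN1 and GPX2. They were chosen by name, and all 10 were found among the 52992 genes with summed transcript values. RNA was sequenced from TE5, an established cell line of human esophageal squamous cell carcinoma, in 3 libraries. In 1 of them the cells had received a scrambled control, called scramble here, and in 2 a short hairpin RNA against KLF5, a zinc finger factor of proliferating epithelia, called shKLF5 libraries 1 and 2. All cells were collected after 48 h, and neither the hairpins nor separate cultures are told apart in the labels. The p-values below therefore rest only on spread between the 2 shKLF5 libraries, which may be technical. The lone control is taken to be as variable as these. For each gene the fit pulls this spread towards the trend over all genes. A p-value or SE therefore does not reflect the spread of that gene alone.

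NRF2 is kept scarce by KEAP1, an adaptor that hands it to a CUL3 ubiquitin ligase for destruction. Oxidants and electrophiles disarm KEAP1, and NRF2 then enters the nucleus, pairs with a small MAF protein and switches on genes through antioxidant response elements, where the repressor BACH1 competes with it. Because NRF2 is controlled largely as a protein, the level of NFE2L2 mRNA is only part of its activity. Squamous cancers of the esophagus are known for mutations in this pathway.

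Promoter sequences from RefSeq (GRCh38.p14) were at hand for 8 of the 10 genes, at 10 start sites, all but SLC7A11 and HMOX1. The stretch from 250 bases before to 10 bases after each start was searched on both strands for the core antioxidant response element TGACNNNGC, for the AP-1 element TGANTCA and for the GC or CACCC box CCNCNCCC that KLF and SP factors can bind. The first was found at 4 of the 10 starts, in GCLM, GPX2 and both starts of TXNRD1, and in 11.6% of all 35116 promoters of this length. The first and second motif can share letters. The AP-1 element was found in OSGIN1, 97 bases before the start, and in 6.92% of all promoters. The GC or CACCC box was found in all 8 genes and in 54.0% of all promoters. A match is only a match of letters. Printed here are 3 promoters with an antioxidant element, on the strand of the gene, with the match in capitals. They lie at chr1:93909421-93909680 (minus strand) for GCLM, at chr12:104286782-104287041 (plus strand) for the downstream start of TXNRD1 and at chr14:64942736-64942995 (minus strand) for GPX2. In each the element is on the opposite strand, beginning 34, 102 and 122 bases before the start, and reads TGACTAAGC, TGACAAAGC and TGACTTAGC there.
GCLM: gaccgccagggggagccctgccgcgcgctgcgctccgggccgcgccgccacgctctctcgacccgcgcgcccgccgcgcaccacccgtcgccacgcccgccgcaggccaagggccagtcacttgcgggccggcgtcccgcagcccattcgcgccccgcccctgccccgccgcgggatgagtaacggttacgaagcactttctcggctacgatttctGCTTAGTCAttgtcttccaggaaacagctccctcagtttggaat
TXNRD1: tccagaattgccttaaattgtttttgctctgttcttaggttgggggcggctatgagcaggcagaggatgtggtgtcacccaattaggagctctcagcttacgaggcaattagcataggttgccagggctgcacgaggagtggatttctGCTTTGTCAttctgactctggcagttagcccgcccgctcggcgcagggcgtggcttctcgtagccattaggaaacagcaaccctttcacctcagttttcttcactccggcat
GPX2: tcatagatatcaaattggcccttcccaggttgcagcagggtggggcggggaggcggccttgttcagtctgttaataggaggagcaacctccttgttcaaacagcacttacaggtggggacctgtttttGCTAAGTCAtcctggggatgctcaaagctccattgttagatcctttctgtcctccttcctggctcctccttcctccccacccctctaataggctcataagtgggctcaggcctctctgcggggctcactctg

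The total was between 32720563 and 33544752 estimated counts a library. Mitochondrial mRNA held 31.4% of them in scramble and 26.9% and 30.9% in shKLF5 libraries 1 and 2. Mitochondrial rRNA held 6.66%, 4.13% and 3.80% in the same order. The part of these shares in the scaling was not tested. The count of KLF5 itself was 8402 in scramble and 1333 and 1531 in shKLF5 libraries 1 and 2, a log2 fold change of -2.96 (SE 0.34; edgeR adjusted p = 0.182). All values in a row below keep that order. KRT5, a keratin of basal squamous cells, was at 2110, 514 and 188 TPM (a level per transcript length). TP63, which marks the same cells, was at 84.3, 61.5 and 22.1 TPM. The summed level of 8 squamous markers was 3477, 998 and 583 TPM, and each of the 8 was below scramble in both shKLF5 libraries after scaling. Marker lists of other cells summed to between 15.4 and 26.2 TPM for fibroblasts, mostly COL1A1, to between 0.527 and 3.12 TPM for leukocytes and to between 0.324 and 1.36 TPM for endothelium. PTPRC, the common leukocyte antigen, had 8, 24 and 11 counts, and CD3E, LYZ, CDH5 and KDR had 0 counts in scramble and between 2 and 14 in the others. ITGAM, of the leukocyte list, had more, with 8, 72 and 108 counts (0.082, 1.15 and 2.04 TPM). VWF, of the endothelium list, had 87, 237 and 341 counts and made up most of the sum of that list. Markers of simple and glandular epithelium summed to between 139 and 173 TPM, nearly all from the keratins KRT8 and KRT18, with MUC2 at 0 counts in all 3 libraries. The part of these marker differences in the results below was not tested. In bulk RNA, fewer cells of a type and less RNA per cell cannot be told apart.

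After scaling by TMM (trimmed mean of M values, which sets the typical gene to no change), each shKLF5 library was below scramble for all 10 genes. Over all genes tested, 36.5% were below scramble in both and 37.9% above it in both. Among the 5487 genes with a mean of at least 30 CPM (counts scaled to library size), a limit chosen after the values were seen and passed by all 10, 56.5% were below scramble in both. The median log2 fold change of the 10 was -1.01, beside 0.039 over all 20629 genes tested and -0.21 over the genes with at least 30 CPM. No gene passed edgeR's quasi-likelihood test at an adjusted p under 0.05, among these 10 or any others, which is 0.0% of 20629. An unadjusted p under 0.05 was reached by 7 of the 10, all of them lower, against 3.5% of all genes tested on that side, 5.68% on the higher side, 9.18% in all, and 6.32% lower among the genes with at least 30 CPM. DESeq2 called 116 genes, 0.681% of the 17029 to which it gave an adjusted p. The older fit of edgeR called 21, 0.102% of 20629. None of the 10 was among the genes called by either. The genes were picked with earlier results of these data known, so their shared direction is a description.

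**Figure D1:**
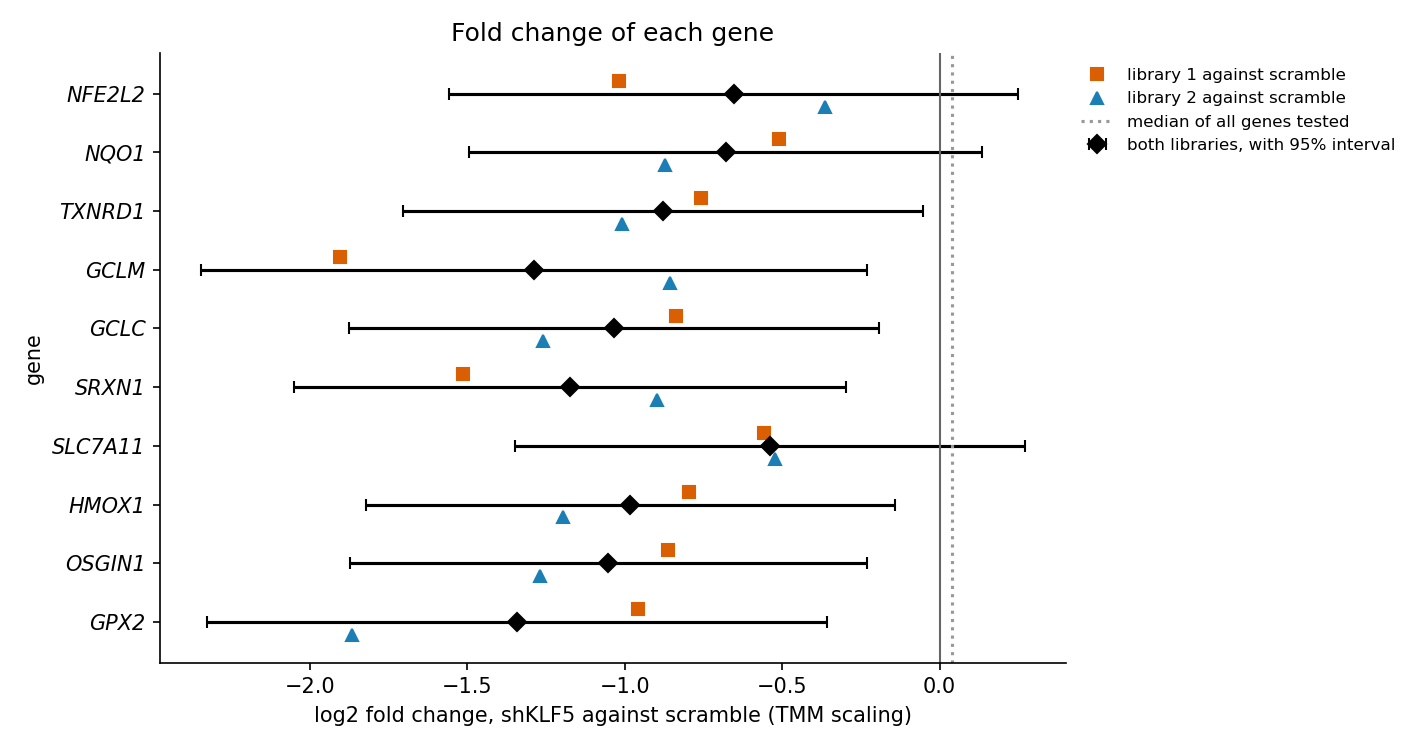
Log2 fold change of shKLF5 against scramble for the 10 genes, after TMM scaling. Diamonds are the fit over both shKLF5 libraries with its 95% interval, squares are library 1 and triangles are library 2, each against scramble, and the dotted line is the median of all genes tested at 0.039. All points lie to the left of 0, and the intervals of NFE2L2, NQO1 and SLC7A11 cross it.

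How much lower they stood depended on the scaling. The 7 genes with an unadjusted p under 0.05 became 0 with library size alone and 0 with limma on log2(TPM + 1), and 3 with either other filter on low counts. The share of all genes at that p was not computed under these other settings, so these counts have no background beside them. The median of all genes tested was 0.039 on the log2 scale with TMM and 0.467 with library size alone, a shift that moves every gene alike. In the deposited TPM, 7 of the 10 genes were lower in both shKLF5 libraries, beside 11.3% of all genes tested. The exceptions were NFE2L2, higher in library 2, NQO1, near equal in library 1, and SLC7A11, near equal in both. Relative to the median of all genes under the same scaling, the 10 genes lay below in every one of the 11 fits that were run. A change of scaling moves the median along with the genes, so these fits are not separate evidence. With library size alone the distances, from -0.58 to -1.38, were those of TMM. The median of the genes with at least 30 CPM, -0.21 with TMM, lay nearer to the 10. With TMM the distance ran from -0.58 for SLC7A11 to -1.38 for GPX2, and with log2(TPM + 1) from -0.25 to -1.21.

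**Figure D2:**
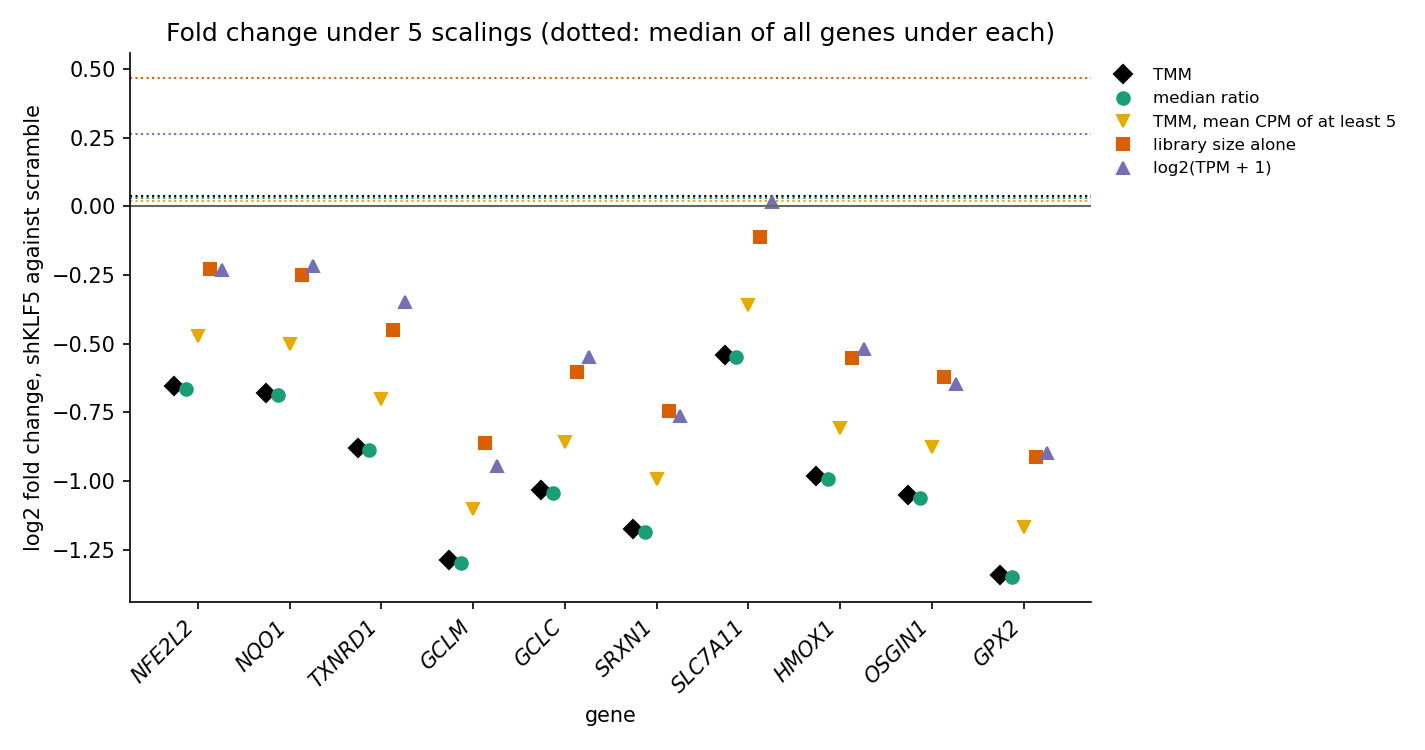
Log2 fold change of the 10 genes under 5 scalings, with 1 symbol for each scaling and a dotted line in the same colour for the median of all genes under it. Every symbol lies under the dotted line of its own colour, and SLC7A11 with log2(TPM + 1), at 0.017, is the only point above 0.

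In scramble the levels fell into a high and a low set. TXNRD1 (301 TPM), GCLC (297), GPX2 (272) and NQO1 (252) stood above OSGIN1 (117), SRXN1 (115), SLC7A11 (77.0), NFE2L2 (58.8), HMOX1 (47.2) and GCLM (38.5). In the shKLF5 libraries the same 4 genes led, with GPX2 at its lower value of 100.3 TPM still above the highest value of the other set, 89.3 TPM for OSGIN1. Within the high set the ranges of the 2 libraries overlapped between neighbours. In the low set, ordered by the mean of the shKLF5 libraries, neighbours from SLC7A11 through OSGIN1 and SRXN1 to NFE2L2 overlapped likewise. SLC7A11 and NFE2L2 themselves did not overlap. The levels of genes with many short annotated transcripts are less sure, since a few reads on a short transcript give a high TPM.

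**Figure D3:**
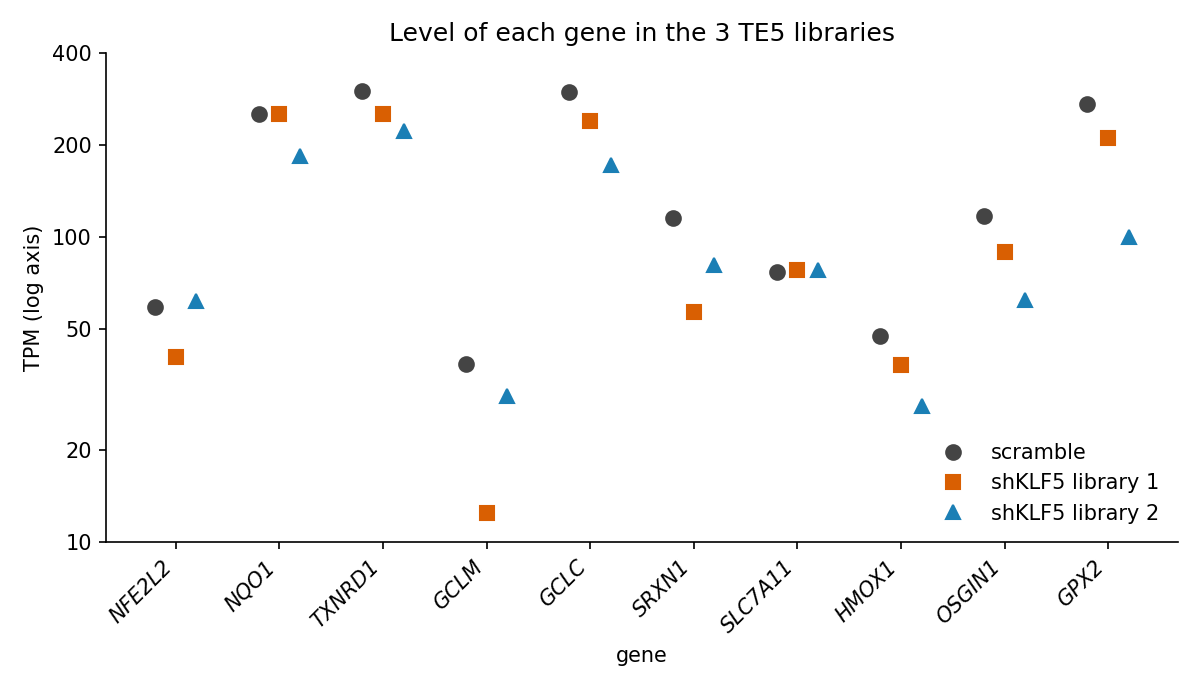
Level of each of the 10 genes in TPM, on a log axis, with a circle for scramble, a square for shKLF5 library 1 and a triangle for shKLF5 library 2. GCLM, SRXN1 and NFE2L2 have their lowest point in library 1, GCLC, GPX2, HMOX1, OSGIN1, NQO1 and TXNRD1 have theirs in library 2, and SLC7A11 is level.

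The regulator comes first. NFE2L2 (ENSG00000116044; GRCh38 chromosome 2, 177227595 to 177392697, minus strand) was counted 3790 times in scramble and 2521 and 3853 times in shKLF5 libraries 1 and 2. Its level was 58.8, 40.5 and 61.7 TPM, so the shKLF5 libraries fell on both sides of scramble on that scale. In TMM-normalised CPM it was 143 against 90.6 ± 28.6 (SD, n = 2), with both shKLF5 libraries lower. The log2 fold change was -0.65 (SE 0.39, 95% interval -1.56 to 0.25; edgeR adjusted p = 0.631), and -1.02 in library 1 beside -0.36 in library 2. That gap of 0.65 between the shKLF5 libraries is as wide as the difference from scramble.

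Its transcripts did not keep their proportions. NFE2L2-202 (coding, 2651 bases) had 1589 counts in scramble against 573 and 981, or 41.9% of the counts of the gene against 22.7% and 25.5%. NFE2L2-201 (coding, 2853 bases) had 1286 against 984 and 1520, and its share was 33.9% against 39.0% and 39.5%. NFE2L2-206, whose share was 16.1% in scramble, had 28.1% and 19.9%. The first of these was lower in both shKLF5 libraries, and the second lay on both sides of scramble. Counts of such overlapping transcripts are kallisto's division of shared reads, and no test was run on the shares. AGPS, a gene on the opposite strand that overlaps the annotated span of NFE2L2, had 1072, 1279 and 1407 counts. With the use of strand not given, reads of the overlap cannot be told apart.

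Glutathione is made in 2 steps, of which the first is catalysed by glutamate-cysteine ligase, a pair of the catalytic subunit GCLC and the modifier subunit GCLM. GCLC (ENSG00000001084; chromosome 6, 53497341 to 53616970, minus strand) had 20544, 15494 and 11226 counts, or 773 CPM against 378 ± 77.4 (SD, n = 2). Both shKLF5 libraries were below scramble, library 2 more so. GCLM (ENSG00000023909; chromosome 1, 93885205 to 93909456, minus strand) had 3286, 1181 and 2375 counts, or 124 CPM against 50.6 ± 24.995 (SD, n = 2). Here library 1 was the lower, at 3.75-fold below scramble, while library 2 was 1.81-fold below. The log2 fold change was -1.03 (SE 0.36, 95% interval -1.87 to -0.19) for GCLC. It was -1.29 (SE 0.46, 95% interval -2.34 to -0.23) for GCLM, and by edgeR's test the adjusted p was 0.476 for each. The ratio of GCLC to GCLM in TPM, which no scaling between libraries can move, was 7.72 in scramble, 19.1 in library 1 and 5.71 in library 2. The 2 shKLF5 libraries thus lay on either side of scramble in this ratio.

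GCLM was counted almost wholly on its only coding transcript, of 4857 bases, with 92.4%, 94.8% and 90.7% of its counts. A noncoding transcript of 625 bases, GCLM-203, had 233, 53 and 203 counts and made up 42.3%, 30.7% and 46.6% of the TPM. On the coding transcript alone the level was 20.9, 7.999 and 14.7 TPM, lower in both. The main coding transcript of GCLC, of 3813 bases, had 129, 96.4 and 63.0 TPM and held 70.7%, 67.8% and 63.7% of the counts. It held 43.3%, 40.4% and 36.5% of the TPM. A noncoding transcript of 542 bases, GCLC-211, had 90.0, 78.5 and 52.4 TPM, or 30.3%, 32.8% and 30.4%. Both short noncoding transcripts enter the ratio of GCLC to GCLM above. AL033397.1, a noncoding gene on the same strand within the span of GCLC, had 1981, 1922 and 2219 counts.

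Cysteine for glutathione comes in as cystine through SLC7A11, the light chain of the cystine and glutamate exchanger, which needs the heavy chain SLC3A2. SLC7A11 (ENSG00000151012; chromosome 4, 138164097 to 138242349, minus strand) had 21339, 19563 and 19425 counts, and its level was 77.0, 77.9 and 77.9 TPM. In TPM the shKLF5 libraries stood at 101.2% and 101.1% of scramble. In CPM it was 803 against 552 ± 9.003 (SD, n = 2), with a log2 fold change of -0.54 (SE 0.35, 95% interval -1.35 to 0.27; edgeR adjusted p = 0.661). With library size alone it was -0.11, and with log2(TPM + 1), where the length correction, the transform and the model differ as well, it was 0.017. Its coding transcript SLC7A11-201 had 72.4, 68.6 and 65.0 TPM, lower in both. The short transcript SLC7A11-202 (797 bases), annotated as a target of nonsense-mediated decay, had 90.8, 177 and 254 counts. It made up 6.01%, 12.0% and 16.5% of the TPM. SLC7A11-AS1, an antisense RNA of the locus, had 43, 71 and 142 counts, and the ratio of SLC7A11 to SLC3A2 in TPM was 0.125, 0.127 and 0.202.

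GPX2, the gastrointestinal glutathione peroxidase, uses glutathione to reduce hydroperoxides and carries selenocysteine. GPX2 (ENSG00000176153; chromosome 14, 64939152 to 64942905, minus strand) had 5197, 3604 and 1865 counts, or 195 CPM against 77.1 ± 33.2 (SD, n = 2). Its TPM was 272, 211 and 100.3, so that library 2 stood at 36.8% of scramble and library 1 at 77.5%. The log2 fold change was -1.34 (SE 0.43, 95% interval -2.33 to -0.36; edgeR adjusted p = 0.474), the lowest of the 10 genes with TMM. Its widely expressed relatives were not lower: GPX1 had 844, 1575 and 1806 counts and GPX4, which protects membrane lipids, had 2839, 4864 and 4959. The ratio of GPX4 to GPX2 in TPM was 0.476 in scramble, 1.07 in library 1 and 2.22 in library 2. Both coding transcripts of GPX2 with at least 10% of its counts were lower in both shKLF5 libraries.

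The thioredoxin system runs from NADPH through thioredoxin reductase and thioredoxin to the peroxiredoxins. TXNRD1, the cytosolic thioredoxin reductase and a selenoprotein (ENSG00000198431; chromosome 12, 104215779 to 104350305, plus strand), had 26678, 21258 and 17342 counts, or 1003 CPM against 546 ± 66.8 (SD, n = 2). The log2 fold change was -0.88 (SE 0.36, 95% interval -1.70 to -0.05; edgeR adjusted p = 0.525). TXN, thioredoxin itself, had 27865, 14143 and 13935 counts, a log2 difference of -1.40 (SE 0.34; edgeR adjusted p = 0.452). The ratio of TXN to TXNRD1 in TPM was 4.26 in scramble against 2.68 and 2.87, so both shKLF5 libraries lay below scramble.

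SRXN1, sulfiredoxin, repairs peroxiredoxins whose cysteine has been overoxidised. SRXN1 (ENSG00000271303; chromosome 20, 646615 to 653370, minus strand) had 9065, 4278 and 6363 counts on its single annotated transcript, or 115, 56.6 and 80.7 TPM. Both shKLF5 libraries were lower on both scales, with library 1 the lower. In CPM it was 341 against 151 ± 44.98 (SD, n = 2), with a log2 fold change of -1.17 (SE 0.38, 95% interval -2.05 to -0.30; edgeR adjusted p = 0.474). PRDX1, a main peroxiredoxin of the cytosol, had 18704, 12326 and 7225 counts, a log2 difference of -1.35 (SE 0.40; edgeR adjusted p = 0.474), with library 2 the lower. The ratio of PRDX1 to SRXN1 in TPM was 6.18 in scramble, 8.61 in library 1 and 3.45 in library 2.

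The transcripts of TXNRD1 differed in proportion between libraries as well. TXNRD1-203 (coding, 3488 bases) had 17589 counts in scramble against 12897 and 9001, or 65.9% of the counts of the gene against 60.7% and 51.9%. TXNRD1-214 (coding, 3974 bases) had 2237 counts in scramble against 4069 and 2932, or 8.38% against 19.1% and 16.9%. It was thus higher by count in both shKLF5 libraries while the gene as a whole was lower. TXNRD1-202 (coding, 3900 bases) had 1690, 35 and 1478 counts, lowest in library 1, where TXNRD1-214 was highest. Here too the counts are kallisto's division of shared reads. Whether the higher counts of TXNRD1-214 are reads moved between such transcripts was not tested. Transcripts that start within 1000 bases of the downstream start site in RefSeq, TXNRD1-203 and TXNRD1-214 among them, held 97.3%, 96.1% and 94.3% of the counts. Those at the upstream start site held 0.627%, 1.64% and 1.12%. Transcripts under 1000 bases made up 11.0%, 14.3% and 26.8% of its TPM. Other genes inside the TXNRD1 span had higher counts in the shKLF5 libraries: EID3, on the same strand, had 218, 521 and 1256, and the antisense gene AC089983.1 had 86, 305 and 747.

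**Figure D4:**
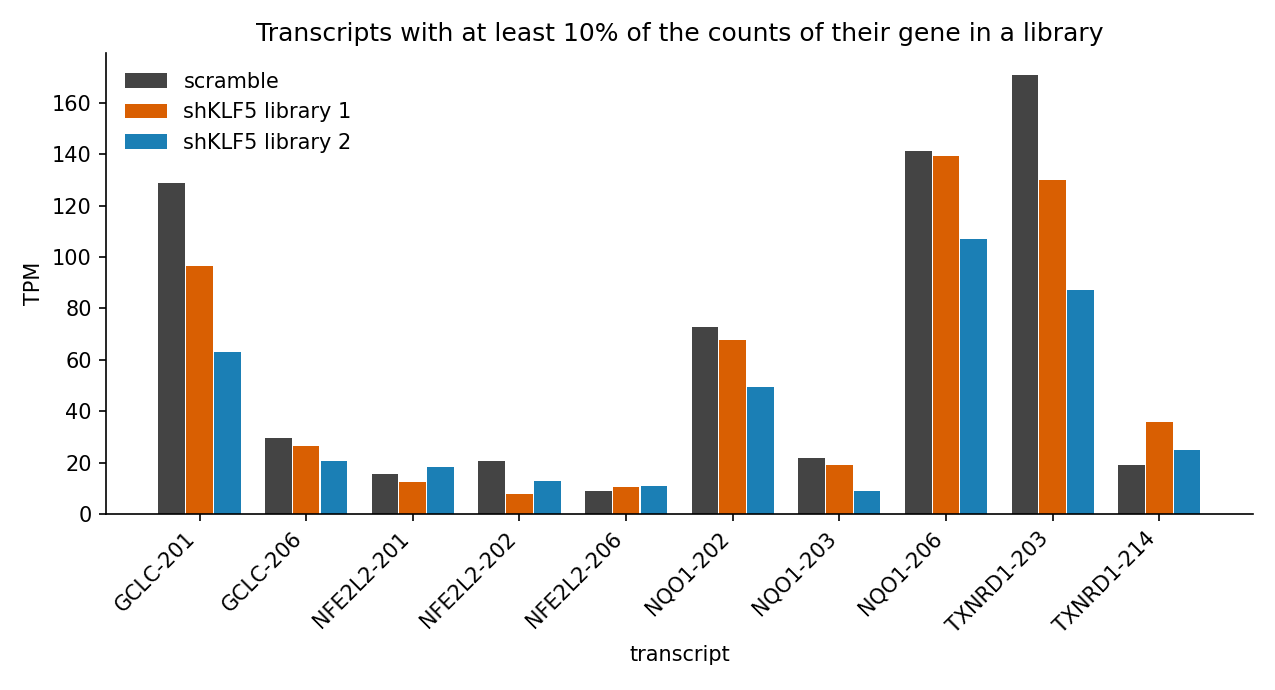
Level in TPM of the transcripts of GCLC, NFE2L2, NQO1 and TXNRD1 that held at least 10% of the counts of their gene in a library, with dark bars for scramble, orange for shKLF5 library 1 and blue for library 2. TXNRD1-203 goes from 171 to 130 and 87.0 TPM, while TXNRD1-214 goes from 19.0 to 35.8 and 24.7 TPM. The levels of overlapping transcripts rest on kallisto's division of shared reads.

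The other targets act on quinones, heme and cell growth. NQO1, which reduces quinones in a single step without radicals (ENSG00000181019; chromosome 16, 69706996 to 69726951, minus strand), was at 7457, 7062 and 5329 counts and 252, 253 and 184 TPM. On the TPM scale library 1 was level with scramble and library 2 lower. In CPM it was 280 against 175 ± 31.0 (SD, n = 2), and the log2 fold change was -0.68 (SE 0.35, 95% interval -1.49 to 0.14; edgeR adjusted p = 0.595). The ratio of NQO1 to NFE2L2 in TPM was 4.28, 6.26 and 2.99. NQO1-203, a coding transcript of 2527 bases, had 21.9, 19.0 and 8.93 TPM, and NQO1-206 (892 bases), with the most counts, had 141, 139 and 107 TPM.

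HMOX1, heme oxygenase, breaks down heme and also answers to BACH1. HMOX1 (ENSG00000100292; chromosome 22, 35380361 to 35394214, plus strand) had 2360, 1831 and 1347 counts, or 88.8 CPM against 44.9 ± 8.74 (SD, n = 2), and 47.2, 38.2 and 27.9 TPM. Both shKLF5 libraries were below scramble on both scales. The log2 fold change was -0.98 (SE 0.36, 95% interval -1.82 to -0.14; edgeR adjusted p = 0.482). OSGIN1, an inhibitor of growth induced by oxidative stress (ENSG00000140961; chromosome 16, 83948282 to 83966332, plus strand), had 4520, 3347 and 2454 counts and 117, 89.3 and 62.2 TPM. Its log2 fold change was -1.05 (SE 0.35, 95% interval -1.87 to -0.23; edgeR adjusted p = 0.474), again with library 2 the lower. Both of its transcripts with at least 10% of the counts were lower in both shKLF5 libraries, and their shares of the gene moved little, with 76.0%, 76.4% and 77.5% for OSGIN1-203.

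The 10 genes thus differed in which shKLF5 library was the lower. In CPM library 2 was below library 1 for 6 of them, beside 49.7% of all genes tested. Library 2 minus library 1 on the log2 scale was 1.05 for GCLM, 0.65 for NFE2L2 and 0.62 for SRXN1. It was -0.91 for GPX2, between -0.42 and -0.25 for GCLC, OSGIN1, HMOX1, NQO1 and TXNRD1, and 0.03 for SLC7A11. With 1 library on each side these gaps carry no test. The 3 genes whose promoters are printed above fall on both sides, GCLM lowest in library 1 and GPX2 and TXNRD1 in library 2. KLF5 itself differed by 0.24 between the libraries, with library 1 the lower.

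The genes around NRF2 were followed in lists of other members of the pathway. Of 12 regulators and partners of NRF2, 5 (41.7%) lay below scramble in both shKLF5 libraries and 4 above it in both, and the median log2 fold change was 0.01. Over all genes tested, 36.5% were below in both and 37.9% above in both. Among those with at least 30 CPM, 56.5% were below in both. KEAP1 had 2520, 2313 and 2246 counts and stood at -0.55 (SE 0.34; edgeR adjusted p = 0.641). BACH1 had 1518, 1776 and 2391 counts and stood at 0.05 (SE 0.38), and the ratio of NFE2L2 to BACH1 in TPM was 5.46 against 2.78 and 3.35. The ratio of NFE2L2 to KEAP1 was 1.275 against 0.885 and 1.787, so here the shKLF5 libraries lay on both sides of scramble. Higher by value were MAFF, a small MAF partner, with 510, 1995 and 5267 counts (2.43, SE 0.63; edgeR adjusted p = 0.466), and BACH2, a relative of BACH1 best known from lymphocytes, with 41, 253 and 402 counts (2.59, SE 0.60; edgeR adjusted p = 0.433). SQSTM1, the autophagy receptor p62 that can sequester KEAP1 and is itself an NRF2 target, had 7401, 11168 and 26583 counts and stood at 0.95 (SE 0.55). CUL3 had 1790, 1520 and 1306 counts. The ratio of MAFG to MAFF in TPM was 4.02 in scramble against 0.963 and 0.620.

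Of 23 other genes of glutathione metabolism, 14 (60.9%) lay below scramble in both and 6 above it, beside 36.5% below in both over all genes tested and 56.5% among those with at least 30 CPM. The count below in both was 8 with library size alone and 8 in TPM. In TPM, 11.3% of all genes tested and 14.3% of those with at least 30 CPM were below scramble in both. That share was not computed for library size alone. With TMM the median of the list was -0.41, and 4 of its genes had an unadjusted p under 0.05 on the lower side and 1 on the higher side. The transferases GSTM2 (3960, 1739 and 1219 counts; -1.83, SE 0.36), GSTM3 (4369, 2085 and 1746; -1.60, SE 0.34) and GSTA4 (635, 400 and 198; -1.50, SE 0.49) had the smallest p, and MGST1, chosen after its values were known, was the other (1299, 990 and 602; -1.12, SE 0.41). The GSTM genes are close paralogs, so their single values are uncertain. CHAC1, an enzyme that breaks glutathione down, was the gene on the higher side, with 238, 521 and 1310 counts (1.54, SE 0.62), and is likewise named with its values known. Of 18 genes of thioredoxins, glutaredoxins and peroxiredoxins, 14 lay below scramble in both and 3 above it, and the median was -0.50. With library size alone and in TPM the count below in both was 6, with medians of -0.069 and, for log2(TPM + 1), -0.053. The count in TPM is to be read beside the same 11.3% and 14.3%. TXN, PRDX1 and PRDX2 (2378, 2199 and 1196 counts; -0.90, SE 0.42) had the smallest p in that list.

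Of 24 other NRF2 targets, 23 were tested, 19 lay below scramble in both and 0 above it. SQSTM1, which was above in both, was placed with the regulators and is not in this count. The count below in both was 17 with library size alone and 16 in TPM. In TPM, 11.3% of all genes tested and 14.3% of those with at least 30 CPM were below in both. With TMM the median of the list was -1.02. An unadjusted p under 0.05 was reached by 12, all lower, beside 3.5% of all genes tested and 6.32% of those with at least 30 CPM. AKR1B10, ALDH3A1 and AKR1C1, which act on aldehydes and ketones, had the smallest p, with log2 fold changes of -2.08, -2.64 and -1.84, each beyond that of any of the 10 genes. The subunits of the iron store ferritin had other values. FTH1, the heavy chain of ferritin, had 69433, 88948 and 130380 counts (0.25, SE 0.45), and FTL, the light chain, had 35442, 34938 and 53270 (-0.09, SE 0.42). Ferritin genes have many near-identical pseudogene copies, so these counts are uncertain, and the pair is named with its values known. Of 7 other antioxidant enzymes tested, 5 were lower in both, and of 6 genes of selenoprotein synthesis 4 were, with medians of -0.61 and -0.17. These shares, with TMM, are to be read beside the 36.5% and 56.5% above. The counts were 3 and 1 with library size alone, where the share over all genes was not computed. In TPM they were 0 and 0, beside the 11.3% and 14.3% given above for TPM. CAT, catalase, had 2573, 2421 and 900 counts, SOD1 had 6894, 6758 and 5159, and DUOX2 had 5, 37 and 18. SEPHS1, SEPHS2 and SECISBP2, of selenoprotein synthesis, stood at -0.82, 0.67 and -0.23. Every adjusted p in these lists was above 0.05 by edgeR's test.

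The genes nearest in pattern to the mean of the 9 targets were VWA8, NT5DC1, FOPNL, LYN and PEMT. They were taken from 6968 protein-coding genes with a mean of at least 10 TPM by Euclidean distance of centred log2(TPM + 1) values over the 3 libraries, and the distance was between 0.020 and 0.052. VWA8, for example, had 15.4, 11.0 and 9.53 TPM. With 3 libraries many genes share a shape, and these are given as a description.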

How the data were processed

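RNA was measured in 3 libraries of TE5 cells, 1 scramble and 2 shKLF5, grouped by their labels. Libraries came from total RNA with a TruSeq kit, per the labels' protocols. Kallisto and DESeq2, without versions, and the build hg19 are named in the submitters' processing notes. Not given in the sources used here are the transcript set and whether strand was used. The deposited estimated counts are values per transcript without scaling, per the file headers. Per the file headers, TPM were deposited beside them, and they sum alike in all tables. The deposited length and effective length columns were used only for length-scaled counts and to describe transcripts.

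Of 196354 transcripts, 92.6% were matched by Ensembl identifier to GENCODE 29 (GRCh38), whose coordinates are printed, and summed per gene. Unmatched transcripts held between 3.05% and 3.42% of the counts. Rounded gene counts went into edgeR 4.0.16 (R 4.3.3), with genes kept by filterByExpr, TMM factors of 0.82, 1.11 and 1.10, and a quasi-likelihood test between the groups with Benjamini-Hochberg adjustment over 20629 genes. There was 1 residual degree of freedom for each gene, beside 6.86 prior degrees of freedom (median) for the spread shared over all genes. SE is the absolute log2 fold change over the square root of F. CPM are TMM-normalised. Values of 1 shKLF5 library against scramble use a prior count of 2, while folds in the text are ratios of CPM. The procedure was tested on simulated data with known changes. The chi-square per gene between the shKLF5 libraries was 98.0, so they are not copies of 1 library.

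By rule, the text names the 10 members, transcripts with at least 10% of the counts of a member, the 3 genes with the smallest p and at least 10 counts in each of 6 lists, KEAP1, BACH1, SQSTM1, KLF5, KRT5, TP63, and the 5 genes nearest in pattern. Other genes and transcripts it names fall outside this rule and were chosen after their values were seen. They are ratio partners such as SLC3A2, MAFG, GPX1 and GPX4, genes overlapping a member, MGST1, CHAC1, FTH1, FTL, GCLC-211, GCLM-203, SLC7A11-202 and TXNRD1-202. Cell type markers come from lists of their own. The lists are regulators and partners of NRF2, glutathione metabolism, thioredoxins with peroxiredoxins, other NRF2 targets, other antioxidant enzymes and selenoprotein synthesis. Members and lists were chosen with earlier results of these data known. SOD2, with 2 gene identifiers under 1 symbol, was not analysed here. Other settings tried were library size alone, median-ratio size factors, no filter, a mean CPM of at least 5, edgeR's legacy fit, DESeq2 1.42.0, limma 3.58.1 on log2(TPM + 1) and log2(TPM + 0.1), length-scaled TPM and protein-coding transcripts. Each shKLF5 library was also left out by reading the values of the other, without a new fit. The labels name no molecular identifiers, so reads are not independent molecules.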

Additional observations from a re-analysis of the deposited data

How the results depend on the processing

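No paired analysis was possible because the scramble library is alone and carries no number. The count of genes called was 0 with edgeR's quasi-likelihood test, 116 with DESeq2 and 21 with edgeR's legacy fit; 1893 genes had an unadjusted p under 0.05. The 7 of 10 genes with an unadjusted p under 0.05 became 0 with library size alone, 0 with limma on log2(TPM + 1), 0 with limma on log2(TPM + 0.1), 3 with no filter on low counts and 3 with a mean CPM of at least 5. The cause was not tested, and the share of all genes at that p was not computed under these settings. The count lower in both shKLF5 libraries was between 7 and 10 over all settings. With either shKLF5 library left out it was 10, which follows from all 10 being lower in both with TMM and is no further check. SLC7A11 turned to 0.0166 and 0.0168 with limma on log2(TPM + 1) and log2(TPM + 0.1), and no other member turned. The adjusted p of the 10 genes ran from 0.319 to 0.999 over all settings. All genes tested had a median of 0.039 with TMM, 0.467 with library size alone, and 0.264 and 0.431 with log2(TPM + 1) and log2(TPM + 0.1), so a list median above 0 under the last 3 is no sign of a change of its own. Under these, and 2 other settings, list medians crossed 0: glutathione metabolism to 0.017 with library size alone, selenoprotein synthesis to 0.254 with library size alone, 0.202 with log2(TPM + 1) and 0.214 with log2(TPM + 0.1), and regulators of NRF2 to -0.030 with no filter and, leaving out 1 shKLF5 library at a time, to values from -0.113 to 0.0682. No fit was run without a shKLF5 library. The values given for this are those of the other shKLF5 library against scramble, with the filter and scaling of all 3 libraries, and carry no test. Each of the 10 genes had at least 1181 counts in every library; what limits the precision most was not tested.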
